A study of Rattus norvegicus with 2 samples.

Results

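The genes described are the colony-stimulating factors *Csf1*, *Csf2* and *Csf3*, their receptor chains *Csf1r*, *Csf2ra*, *Csf2rb* and *Csf3r*, and the nuclear receptor *Pparg*. A probe set, the group of short probes that reports a transcript on the array, was a member when the platform annotation gave it exactly 1 gene symbol and that symbol was among these 8. This gave all 8 genes, of 14217 on the array with a probe set of 1 symbol, by 12 of the 31042 non-control probe sets: 7 of ligands, 4 of receptors and 1 of *Pparg*. Every member was represented, and no filter on level was applied. *Csf1* had 4 probe sets, *Csf2* had 2 and each other gene had 1.

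The study measured total RNA of rat lung on 2 Affymetrix Rat Genome 230 2.0 arrays to see how well global expression values repeat. Each array came from a different experimenter, and the arrays are called those of experimenter 1 and experimenter 2, after the numbers in their titles. Neither group carries a label of strain, genotype, sex, age or treatment, and the labels do not tell if the arrays share a lung or an RNA extract. Each group is 1 array, which allows no test, and the differences below have no replicate check. Values are log2 values from RMA, which equalises probe intensities between arrays before it summarises them per probe set; the summarised values still had medians of 6.32 and 6.28, and every difference is experimenter 2 minus experimenter 1. A percentile is the share of all non-control probe sets on the same array with a lower value. A lung sample mixes many cell types, so fewer cells of a type and less RNA per cell cannot be told apart.

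Colony-stimulating factors are secreted proteins that drive the growth, survival and activation of myeloid cells. CSF1 sustains monocytes and macrophages through the receptor tyrosine kinase CSF1R. CSF2, also called GM-CSF, is made in lung largely by alveolar epithelium and by lymphoid cells, and signals through a ligand-binding alpha chain and a beta chain to JAK2 and STAT5. In alveolar macrophages this signal induces PPARG, a transcription factor of lipid handling, and its loss leaves surfactant uncleared in the airspaces. CSF3, also called G-CSF, acts on neutrophils and their precursors through CSF3R.

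*Csf2* and *Csf2ra* were the ligand and receptor of 1 pair that both had an entry in the RefSeq promoter table (build GRCr8), where 5 of the 8 genes matched: *Csf1r*, *Csf2*, *Csf2ra*, *Csf3r* and *Pparg*. Their 250 bases before the annotated start are shown to place the ligand gene and the receptor gene of the GM-CSF axis side by side; the arrays measured transcripts and nothing at these sites. The sequences are on the minus strand, chr10:38889674-38889923 for *Csf2* and chr14:118118-118367 for *Csf2ra*, written 5′ to 3′ with matches to the motifs searched in capitals.
Csf2: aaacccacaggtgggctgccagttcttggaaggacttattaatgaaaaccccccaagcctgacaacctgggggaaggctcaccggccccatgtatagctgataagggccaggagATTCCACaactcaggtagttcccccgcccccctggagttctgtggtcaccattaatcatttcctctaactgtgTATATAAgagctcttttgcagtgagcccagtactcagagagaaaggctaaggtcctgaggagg
Csf2ra: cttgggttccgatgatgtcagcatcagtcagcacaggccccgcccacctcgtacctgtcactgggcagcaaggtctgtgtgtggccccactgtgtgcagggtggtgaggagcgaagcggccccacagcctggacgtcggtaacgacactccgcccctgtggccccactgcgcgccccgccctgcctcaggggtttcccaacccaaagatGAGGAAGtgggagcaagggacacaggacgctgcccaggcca
The motifs were searched on both strands and were chosen after these sequences had been seen. ATTCCAC, the last letters of the CK-1 element known from colony-stimulating factor promoters, lay 136 to 130 bases before the start of *Csf2* and occurred in 2.64% of the 33469 promoter entries. A TATA box, TATANAA, lay 63 to 57 bases before the same start and occurred in 11.6% of entries. The purine-rich core bound by ETS factors, GAGGAAG, lay 41 to 35 bases before the start of *Csf2ra* and occurred in 10.2% of entries. It also matched 160 to 154 bases before the start of *Csf3r* and, on the other strand, 230 to 224 bases before that of *Csf1r*, so it was in all 3 receptor entries but not in that of *Csf2* nor in the 2 of *Pparg*. The matches do not overlap. A match is a description of the letters only.

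*Csf1*, the macrophage growth factor, was measured by 4 probe sets whose values differed more among themselves than between the arrays. Probe set 1380582_at measured 8.28 for experimenter 1 and 7.92 for experimenter 2, a difference of -0.36 or 1.28-fold, at percentiles 75.6 and 71.5. Probe set 1369354_at measured 7.04 and 7.18, a difference of 0.14, and was the 1 member that was higher for experimenter 2. Probe set 1379631_at measured 6.95 and 6.91, a difference of -0.036, and 1380583_s_at measured 6.40 and 6.26, a difference of -0.15. The first and the last of these are annotated with the same sequence accession, and both were lower for experimenter 2. The spread between the 4 probe sets was 1.87 on the array of experimenter 1 and 1.66 on that of experimenter 2, against a largest difference between arrays of 0.36. The differences themselves ran from -0.36 to 0.14, so the direction for *Csf1* depended on the probe set.

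*Csf2*, which encodes GM-CSF, had 2 probe sets annotated with the same sequence accession, and their levels lay far apart on each array. Probe set 1371228_at measured 6.70 and 6.44, a difference of -0.25, at percentiles 54.7 and 52.0, just above the median of each array. Probe set 1371227_at measured 4.08 and 4.02, a difference of -0.058, at percentiles 20.0 and 20.0. The gap between them was 2.62 for experimenter 1 and 2.42 for experimenter 2. Signal from each probe set depends on how well its probes bind, so these levels give no single abundance for *Csf2*, and its place above or below the array median depended on the probe set.

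*Csf3*, the gene of the neutrophil growth factor G-CSF, gave the lowest value of the members on each array. On the deposited values, though not after quantile normalization, it also had the largest difference between the arrays. Its probe set 1369529_at measured 3.49 for experimenter 1 and 3.03 for experimenter 2, at percentiles 10.9 and 5.19. The difference of -0.46 is 1.37-fold, and 5.66% of all probe sets had a difference as low or lower. RMA gives no detection call, so a value this near the bottom of the arrays (lowest values 2.31 and 2.26) has no stated background limit and does not show whether the transcript was present.

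*Csf1r*, the CSF1 receptor carried by monocytes and macrophages, lay near the top of both arrays. It measured 10.13 and 9.95, at percentiles 93.8 and 92.8, with a difference of -0.17. All 10 macrophage markers measured, of 13 listed, were within 1.5-fold between the arrays, 5 higher and 5 lower for experimenter 2, with a median difference of 0.0031. Their summed level was 14.76 and 14.73, of which *Lyz2*, a lysozyme gene at 14.51 and 14.49, made up 83.7% and 84.4%. Without *Lyz2* the sum was 12.15 and 12.05. *Cd68*, a lysosomal glycoprotein of macrophages, was at 10.39 and 10.16, and *Itgax*, the integrin chain CD11c, at 8.66 and 8.87. The part of macrophage number in the level of *Csf1r* was not tested.

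The GM-CSF receptor chains *Csf2ra* and *Csf2rb* differed between the arrays by unlike amounts. *Csf2ra*, the ligand-binding alpha chain, measured 8.29 and 7.84, a difference of -0.44 or 1.36-fold, at percentiles 75.8 and 70.5. Of all probe sets, 6.20% had a difference as low or lower. *Csf2rb*, the beta chain shared with the receptors of IL-3 and IL-5, measured 5.23 and 5.17, a difference of -0.063, at percentiles 35.9 and 35.8. The alpha chain was thus above the upper quartile (8.22) for experimenter 1 and below it (8.18) for experimenter 2, while the beta chain kept the same place below the median. Each chain rests on 1 probe set, and no second one was present to check it.

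*Csf3r*, the G-CSF receptor of neutrophils, had the smallest difference of the members on the deposited values. It measured 6.97 and 6.95, a difference of -0.016, at percentiles 58.3 and 58.6. Its ligand *Csf3* had the largest on these values, -0.46. With each array centred on its median, *Csf1* by 1379631_at was nearer to no difference, at -0.0017 against 0.018 for *Csf3r*. *Csf2* by 1371227_at was nearer with a loess trend removed (-2.5e-05 against 0.040) and after quantile normalization (0.0021 against 0.024). The 6 neutrophil markers measured, of 11 listed, had a median difference of -0.044, with 2 higher and 4 lower for experimenter 2, and their summed level was 11.75 and 11.49. *S100a9*, a calgranulin at 11.28 and 10.84, made up 72.4% and 63.8% of that sum, and without it the sum was 9.89 and 10.03, higher for experimenter 2. Its partner *S100a8* was at 9.73 and 9.88, while *Mmp9*, a gelatinase of neutrophil granules, was at 4.29 and 4.69 by its brightest probe set and at 3.75 and 3.46 by its other one. *Cxcr2*, a chemokine receptor that marks neutrophils, was at 4.58 and 4.35 and *Mmp8*, a collagenase of their granules, at 4.44 and 4.43, close to the lower quartile of each array. The part of neutrophil number in the *Csf3r* value was not tested.

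*Pparg* measured 6.998 for experimenter 1 and 6.81 for experimenter 2 by its single probe set 1369179_a_at, at percentiles 58.7 and 56.7. The difference was -0.19, or 1.14-fold. PPARG also drives fat cell formation, and the adipose markers measured, 7 of 8 listed, had a median difference of -0.18, with 3 higher and 4 lower. Their summed level was 9.44 and 9.30, and 5 of the 7 lay below the lower quartile of all probe sets. *Adipoq*, the adiponectin gene, was at 4.33 and 3.81, *Lep*, the leptin gene, at 3.85 and 3.86, *Cidec*, a lipid droplet gene, at 4.39 and 4.17, and *Lipe*, a hormone-sensitive lipase, at 8.79 and 8.58. *Lipe* made up 64.0% and 60.9% of the summed level, and without it the sum was 7.96 and 7.94. The part of adipose tissue in the *Pparg* value was not tested.

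**Figure D1:**
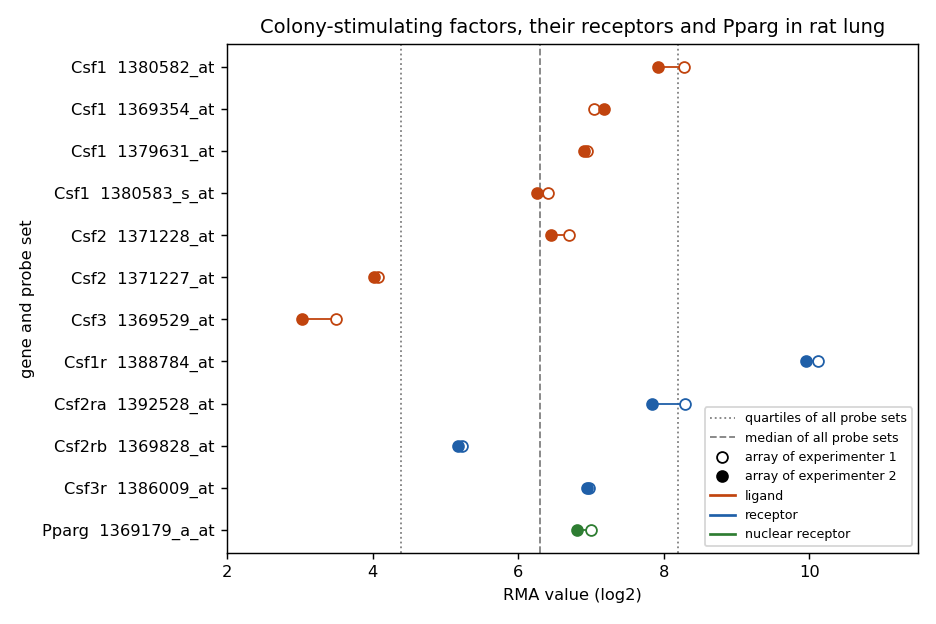
RMA values (log2, horizontal axis) of the 12 probe sets, 1 row each, with open circles for the array of experimenter 1, filled circles for that of experimenter 2, and colours for ligands, receptors and Pparg. Dotted and dashed lines mark the quartiles and the median of all probe sets (mean of both arrays). The circles of a row lie at most 0.46 apart, whereas the rows of Csf2 lie over 2 apart.

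Ligand and receptor genes were spread over the range of each array and did not form separate groups. Of the 7 ligand probe sets, 5 lay above the median of the array for experimenter 1 and 4 for experimenter 2; of the 4 receptor probe sets, 3 did on each. Among the probe sets with 1 gene symbol, the counts above the median were 2 of 7 ligand probe sets on each array, and 2 and 3 of the 4 receptor probe sets for experimenters 1 and 2. Ligand values ran from 3.49 to 8.28 for experimenter 1 and from 3.03 to 7.92 for experimenter 2, and receptor values from 5.23 to 10.13 and from 5.17 to 9.95. Levels of different probe sets depend on their probes as well as on RNA, so these ranges do not rank ligands against receptors in abundance.

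Between the arrays, none of the 12 probe sets differed by 1.5-fold (0.58 on the log2 scale), against 4.35% of all probe sets. At 12 probe sets this is not a result about the members, since 4.35% of 12 is under 1 probe set. None reached 2-fold either, against 0.37%. In direction, 11 of the 12 were lower for experimenter 2 on the deposited values, against 58.7% of all probe sets. The count was 10 after median centring, 9 after a loess trend was removed and 8 after quantile normalization. The share of all probe sets was not counted under these, so the 58.7% does not apply to those counts. The median difference was -0.15 over the ligand probe sets (1 higher, 6 lower), -0.12 over the receptors (0 higher, 4 lower) and -0.052 over all 31042 probe sets. The ligand median minus the receptor median was -0.031, a gap that has no error here. With the brightest probe set of each gene the ligand median was -0.36, the value of *Csf1* by 1380582_at, and the receptor median stayed at -0.12. With the mean over the probe sets of each gene the ligand median was -0.15 and the receptor median -0.12. All 12 differences lay within the central 95% of those of all probe sets, which ran from -0.57 to 0.54.

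Control probe sets at the 3' end of *Actb*, beta-actin, exceeded those at its 5' end by 2.15 for experimenter 1 and by 2.71 for experimenter 2, a gap that widens with shorter labelled RNA. The gap of *Hk1*, a hexokinase, was also wider for experimenter 2, at 1.13 and 1.36, and that of *Gapdh*, a glycolytic enzyme, was 0.30 and 0.26. Whether RNA length had a part in the member differences was not tested.

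**Figure D2:**
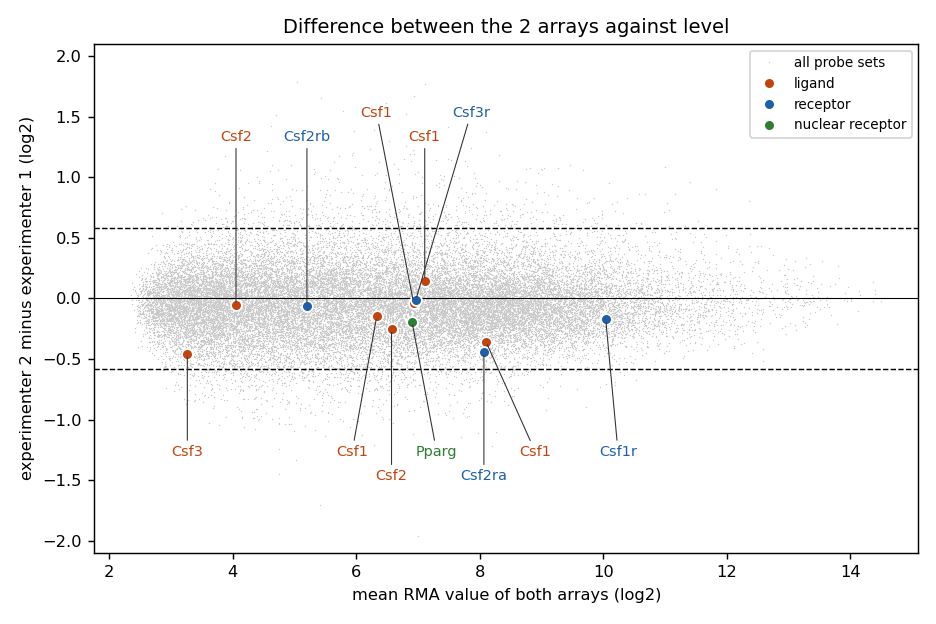
Difference between the arrays (experimenter 2 minus experimenter 1, log2) against mean RMA value (log2) for all 31042 probe sets in grey and the 12 members in colour, with dashed lines at 1.5-fold. No member lies past the dashed lines, and 11 of the 12 lie below 0.

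Other genes of these pathways were described from 13 lists, 6 of pathway genes and 7 of cell type markers, with each gene represented by its brightest probe set. Of the 114 distinct genes measured, 1 passed 1.5-fold upward for experimenter 2 and 0 passed it downward, or 0.877% in all, against 3.24% of all 14217 genes (1.93% higher and 1.31% lower). The gene was *Cxcl2*, a neutrophil chemokine, at 4.23 and 5.04. Counts past 1.5-fold within single lists stand against the same 3.24%. The lists are too small for a count of 0 to be a result about them.

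Among related cytokines and receptors, 2 of the 8 genes measured were higher and 6 lower for experimenter 2, with a median difference of -0.18. By their brightest probe sets, 0 were 1.5-fold apart. *Il34*, the other ligand of CSF1R, measured 8.52 and 8.25. *Il3ra*, the alpha chain of the IL-3 receptor that pairs with the product of *Csf2rb*, measured 7.74 and 7.32, a difference of -0.42 beside the -0.44 of *Csf2ra*. *Il3* measured 3.69 and 3.54, *Il5* 3.49 and 3.59 and *Il5ra* 3.74 and 3.77, all under the lower quartiles of the arrays (4.42 and 4.37). *Il5ra*, the alpha chain of the IL-5 receptor, also pairs with the product of *Csf2rb*, and its difference was 0.025. *Kit*, the stem cell factor receptor, measured 6.28 and 5.88, and its ligand *Kitlg* 11.52 and 11.49 by the brightest probe set. The next probe set of *Kitlg* measured 8.70 and 8.08, a difference of -0.63, which is past 1.5-fold.

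Among the 15 receptor signalling genes measured, 3 were higher and 12 lower, with a median difference of -0.083 and 0 past 1.5-fold. *Jak2*, the kinase bound to the beta chain, measured 7.89 and 7.502, *Stat5a*, a transcription factor activated by it, 7.73 and 7.63, and *Stat5b* 6.47 and 6.38. *Pik3r1*, a regulatory subunit of phosphoinositide kinase, came nearest to the threshold, at 8.59 and 8.01, a difference of -0.58 or 1.498-fold. *Tyrobp*, the adaptor DAP12 of myeloid cells, measured 11.37 and 11.16. *Socs1*, a feedback inhibitor of JAK kinases, measured 4.90 and 5.32, a difference of 0.42, by its brightest probe set and 4.93 and 4.46, a difference of -0.47, by its other one, so its direction was not settled.

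The 9 myeloid transcription factors measured had a median difference of -0.097, with 4 higher, 5 lower and 0 past 1.5-fold. *Runx1*, a regulator of blood cell formation, measured 10.31 and 9.99, *Cebpb*, a factor of macrophage gene expression, 11.29 and 11.15, and *Klf4* 11.34 and 11.37. *Bhlhe41*, a factor of alveolar macrophage identity, measured 8.82 and 8.95.

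PPARG partners and cofactors had a median difference of -0.055 over 10 genes measured, 4 higher and 6 lower, with 0 past 1.5-fold. *Rxra* and *Rxrb*, which encode dimer partners of PPARG, measured 5.57 and 5.76, and 7.12 and 7.05. *Ncor1*, a corepressor, measured 9.78 and 9.52 and *Ncoa1*, a coactivator, 10.06 and 10.07. *Ppargc1a*, another coactivator, had differences of 0.24 from its brightest probe set and of -0.39 and -0.33 from its others. Lipid genes that PPARG is known to activate had a median difference of -0.067 over 10 genes, 1 higher and 9 lower, the largest being -0.22. *Lpl*, lipoprotein lipase, measured 11.75 and 11.73, *Cd36*, a fatty acid receptor, 9.10 and 9.04, *Fabp4*, a fatty acid carrier, 7.78 and 7.70, *Cpt1a*, the carnitine transferase of fatty acid oxidation, 10.61 and 10.39, and *Abcg1*, a cholesterol exporter of macrophages, 10.995 and 10.82. The other probe sets of *Abcg1* were higher for experimenter 2, by 0.16 and 0.066, so its direction depended on the probe set. The median difference over all genes was -0.049.

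Inflammatory signals that induce *Csf2* and *Csf3*, and genes induced with them, had a median difference of -0.055 over 10 genes, 4 higher and 6 lower. *Tnf*, a macrophage cytokine, measured 5.23 and 4.83, *Il1b* 8.57 and 8.52, *Il6* 3.29 and 3.48 and *Il33*, an alarmin of lung stroma and epithelium, 11.88 and 11.77. *Ptgs2*, the inducible cyclooxygenase, measured 5.45 and 6.004, a difference of 0.55, and with *Cxcl2* at 0.82 lay opposite in sign to *Csf3* at -0.46. All 3 lay below the median of both arrays. *Tnf*, at -0.40, and *Ccl2*, at -0.38, had the same sign as *Csf3*, and they are among the 6 lower genes of the 10.

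Markers of cells that make or receive these factors had values on both arrays as follows. Alveolar type 2 cells had a median difference of -0.066 over 9 genes and a summed level of 16.06 and 16.05, with 2 higher and 7 lower. *Sftpc*, a surfactant protein gene, was at 14.39 and 14.36, *Abca3*, a lipid transporter of lamellar bodies, at 11.30 and 11.02, and *Etv5*, a transcription factor of these cells, at 9.03 and 8.89. T cells had a median of -0.25 over 9 genes, 2 higher and 7 lower, and a summed level of 11.28 and 11.06, with *Lck*, a T cell kinase, at 9.21 and 8.87, *Cd3d*, a chain of the T cell receptor complex, at 7.57 and 7.18, and *Il7r*, the IL-7 receptor, at 7.19 and 6.67 by its brightest probe set but 5.92 and 6.65 by its other one. With the mean over the probe sets of each gene the T cell median was -0.071. Endothelial markers had a median of -0.19 over 5 genes and a summed level of 13.89 and 13.79, with 1 higher and 4 lower. *Kdr*, a VEGF receptor and the brightest of them, was the higher one at 12.09 and 12.20, while *Tie1*, an endothelial receptor kinase, was at 9.60 and 9.04, *Pecam1*, an adhesion molecule, at 10.70 and 10.41 and *Tek*, the angiopoietin receptor, at 12.13 and 12.03. Fibroblast markers had a median of -0.028 over 6 genes and a summed level of 13.94 and 13.96, with 2 higher and 4 lower. The collagen genes *Col3a1* and *Col1a1* were at 12.69 and 12.67, and at 8.27 and 8.18, while *Pdgfra*, a growth factor receptor, was at 11.31 and 11.59. Of the 52 marker genes measured, 0 were 1.5-fold apart by their brightest probe sets, against 3.24% of all genes. With so few genes this is not a result about the markers. The other probe set of *Il7r*, 0.74 higher for experimenter 2, was past that threshold. The part of the marker genes in the differences of the members was not tested.

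**Figure D3:**
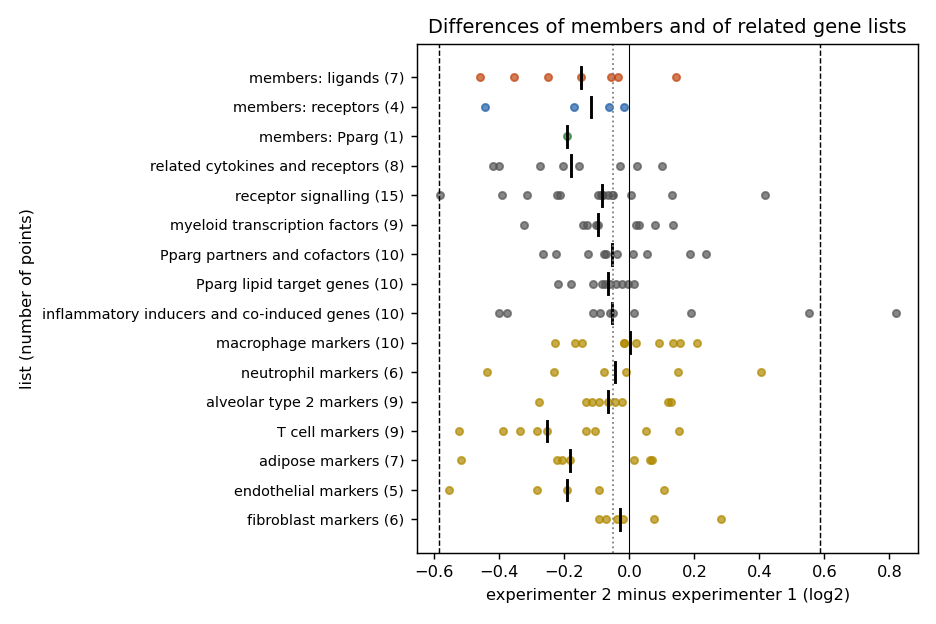
Differences between the arrays (experimenter 2 minus experimenter 1, log2) of the member probe sets by role and of the genes of each list, with the number of points in brackets and a black bar at each median. Dashed lines mark 1.5-fold and the dotted line the median of all probe sets (-0.052). Cxcl2, at 0.82, is the 1 point past the dashed lines.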

How the data were processed

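Per the submitters' processing notes, the authors made the deposited log2 values with RMA (background correction, quantile normalization and summary per probe set). Neither its version nor its annotation, nor which arrays it was run on, is stated, and log base 2 was taken from the range of the values. The table held 31099 probe sets, of which 57 controls were kept apart. Of the others, 20826 had 1 gene symbol, 436 several and 9780 none; Entrez identifiers gave 20758 a current symbol from assembly GRCr8, and the symbols of all 12 members were current.

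Differences were taken on the deposited values with no further centring. A difference of 1.5-fold or more was counted, a rule of size that replaces a test because each experimenter has 1 array; the number of arrays limits the precision. Summed levels are the log2 of summed linear values. Named are all members and, of each list, the gene with the highest mean and the 2 with the largest differences; other list genes were named after their values were seen. The members and lists were chosen with earlier results of these data known. Alternatives were median centring, loess (fraction 0.3), quantile normalization, a 2-fold rule, a filter at the median level and other choices of probe set. Python 3.11.15, numpy 2.4.6, pandas 2.3.3, statsmodels 0.14.6 and matplotlib 3.10.9 were used, and the functions were tested on simulated data.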

Additional observations from a re-analysis of the deposited data

How the results depend on the processing

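No paired analysis was possible because the groups hold a single array apiece, which also means that leaving one out gives no comparison. Centring moved every difference by 0.034, and across the 36 member differences recomputed after centring, loess or quantile normalization the largest shift was 0.063. Differences near 0 changed sign: *Csf3r* was 0.018, 0.040 and 0.024 under these, *Csf1* by 1379631_at was 0.020 under loess and 0.0042 under quantile normalization, and *Csf2* by 1371227_at was 0.0021 under quantile normalization. No member passed 1.5-fold under any of them. Under quantile normalization *Csf2ra* had the largest difference of the members, -0.400, and *Csf3* had -0.396. The ligand median was -0.36 with the brightest probe set of each gene and -0.15 with the mean over the probe sets of each gene. List genes 1.5-fold higher numbered 2 (*Cxcl2* and *Ptgs2*) under each normalization, 0 of the 86 whose mean reached the median level, and 0 at 2-fold. Of 63 list medians recomputed, 1 moved by over 0.1, that of T cells. Among probe sets with 1 gene symbol, member percentiles changed by -1.46 to -8.90 points, and ligand probe sets above the median numbered 2 for experimenter 1 and 2 for experimenter 2.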

Other observations

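Some other list genes with more than 1 probe set are given by each of them; they were picked after their values were seen. *Kitlg*, the stem cell factor gene, measured 11.52 and 11.49 by its brightest probe set and 8.70 and 8.08 by the next. The difference of the latter, -0.63, is past 1.5-fold. *Cpt1a* was lower for experimenter 2 by both of its probe sets, by -0.22 and -0.40, and *Runx1* by both of its own, by -0.33 and -0.22.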
